A study of Mus musculus with 12 samples.

Results

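MHC class I molecules carry peptides from the cell's own proteins to the cell surface, where CD8+ T cells read them. The proteasome cuts the proteins, the TAP transporter moves the peptides into the endoplasmic reticulum, and tapasin helps to load them onto a heavy chain held by beta-2-microglobulin. Interferon induces most of these genes together, exchanging 3 catalytic subunits of the proteasome for inducible ones, and NLRC5 is the transactivator that works on their promoters. The acetyltransferases p300 and CBP are general coactivators that such promoters can recruit. The 10 genes described here cover each step: the light chain B2m, the classical heavy chains H2-K1 and H2-D1, the transporter subunits Tap1 and Tap2, tapasin (Tapbp), the inducible proteasome subunits Psmb8, Psmb9 and Psmb10, and Nlrc5. They were chosen by gene symbol from the 23238 symbols of the count files, each found once, and all 10 passed the filter on low counts that left 13054 genes to be tested.

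The libraries came from murine primary ATII cells (alveolar type II cells, the surfactant-making epithelial cells of the lung), sorted by flow cytometry with antibodies against CD74 and Ep-CAM, and there were 3 mice in each of 4 groups. Con and BLM mice were given intratracheal PBS or 4 mg/kg bleomycin, a drug that injures the lung and leads to fibrosis; in the study's naming they were Spc-p300 f/f, with loxP sites around exon 9 of p300, and the labels call them WT or negative control. KO and KOBLM mice were Spc-p300 d/d, in which a tamoxifen-inducible Cre driven by the Sftpc promoter deletes that exon in ATII cells, and were given PBS or bleomycin in the same way. The labels describe tamoxifen at 10 mg/kg in 8-week-old mice before bleomycin, and for ATII cells isolated for PCR the study names vehicle or tamoxifen as the treatment of f/f mice. The sources used here do not say whether the Con and BLM mice of the sequenced libraries had either, or how long after bleomycin the cells were taken. QuantSeq reads only the 3′ end of a transcript, so levels in CPM (counts scaled to the size of the library) were compared between genes without a correction for length. Deposited totals ran from 7005005 to 11153154 counts per library.

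The labels were checked as far as the data allow. Ep300, the gene of p300, had between 541 and 1341 counts in Con and between 475 and 832 in BLM. It had 1113 to 1434 in the libraries labelled KO and 563 to 1266 in those labelled KOBLM. Because 3′ reads lie far from exon 9, these counts do not check the deletion. The study itself checked it by qRT-PCR in primary ATII cells and by co-staining lungs for p300 and cell markers. Macrophage markers outweighed ATII markers in every library: 12 macrophage genes summed to between 9302.36 and 21006.99 CPM for Con, 1016.21 and 9597.72 for BLM, 9980.71 and 37266.73 for KO, and 7384.73 and 17642.37 for KOBLM. The 12 ATII genes summed to between 755.67 and 2251.96 CPM for Con and between 459.1 and 904.77 for BLM. The range was 186.37 to 828.66 for KO and 187.23 to 692.65 for KOBLM. Chil3 weighed most in the macrophage sums, with 41373 to 160520 counts in Con against 9231 to 18375 for Mrc1. In BLM replicate 3, where Chil3 had 4343 counts and Mrc1 2450, the macrophage and ATII sums were close, at 1016.21 and 904.77. There Etv5 had 4424 counts, Epcam 3666, Sftpc 822, Napsa 580, Sftpa1 195, Slc34a2 186, Cxcl15 178 and Sftpb 40. Sftpd, Abca3, Lamp3 and Lpcat1 had 0 in that library. Sftpc had 176 and 137 counts in BLM replicates 1 and 2. The macrophage genes did not move together: in BLM against Con their log2 fold changes ran from −3.225 (Siglecf) to 6.687 (C1qc). In bulk RNA, fewer cells of a type and less RNA per cell cannot be told apart. BLM replicate 3 stood apart from the other 11 libraries: it held counts for only 6847 genes, 2310.83 summed CPM of pluripotency markers against 0.65 to 17.97 elsewhere, 478.25 of pan-leukocyte markers against 2881.92 to 5555.21, and none of the T/NK or B cell markers. The main comparisons that involve BLM are therefore given with and without it.

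The promoters of the 4 members below are printed because they show what these genes share in sequence. They are the 250 bases before the start of a RefSeq promoter entry on GRCm38.p6, 5′ to 3′ on the gene's strand: B2m at chr2:122147437-122147686 (plus), H2-K1 at chr17:34000348-34000597 (minus), H2-D1 at chr17:35262844-35263093 (plus) and Tap1 at chr17:34187306-34187555 (plus). The H2-K1 entry starts at 34000347, while the RefSeq span of the gene reaches to 34000619, so this window lies inside that span. Capitals mark matches, on either strand, to 4 motifs: TTTCNNTT, the core of an interferon response element; GGG and CCC with 5 bases between, a frame that many NF-kB sites fit; TGACG, the core of a CRE as in the X2 box; and ATTGG, the inverted CCAAT of the Y box. No 2 matches in these windows overlap.
B2m: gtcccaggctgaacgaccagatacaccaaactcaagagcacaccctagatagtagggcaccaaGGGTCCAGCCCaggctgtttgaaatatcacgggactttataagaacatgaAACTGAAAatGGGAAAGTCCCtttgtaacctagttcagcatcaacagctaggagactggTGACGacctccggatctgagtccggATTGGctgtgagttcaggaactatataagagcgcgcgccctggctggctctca
H2-K1: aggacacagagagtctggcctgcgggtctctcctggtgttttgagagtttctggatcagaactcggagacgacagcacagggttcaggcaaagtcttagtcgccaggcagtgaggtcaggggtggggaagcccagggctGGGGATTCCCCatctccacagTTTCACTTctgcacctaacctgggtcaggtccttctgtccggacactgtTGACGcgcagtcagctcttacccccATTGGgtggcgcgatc
H2-D1: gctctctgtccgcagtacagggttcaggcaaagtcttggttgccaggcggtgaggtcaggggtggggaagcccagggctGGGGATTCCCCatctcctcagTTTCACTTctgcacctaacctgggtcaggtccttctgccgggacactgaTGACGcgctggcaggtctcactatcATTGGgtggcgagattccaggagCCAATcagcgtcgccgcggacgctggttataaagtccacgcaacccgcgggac
Tap1: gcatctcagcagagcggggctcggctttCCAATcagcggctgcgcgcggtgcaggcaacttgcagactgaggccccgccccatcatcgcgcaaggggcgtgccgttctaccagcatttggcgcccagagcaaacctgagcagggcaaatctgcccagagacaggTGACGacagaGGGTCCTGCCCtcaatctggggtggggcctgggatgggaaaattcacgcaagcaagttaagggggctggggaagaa

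H2-K1 and H2-D1, whose windows share a run of 47 identical bases, both held GGGGATTCCCC with TTTCACTT after it, and B2m held GGGAAAGTCCC beside AACTGAAA, the reverse complement of a match to the same interferon core. Among 27025 RefSeq promoters of this length, GGGGATTCCCC was found in 6, or 0.0222%, and GGGAAAGTCCC in 15, or 0.0555%, on either strand. The motifs as searched were common: the NF-kB frame was in 12.1% of promoters and in 5 of the 8 members with an entry, TTTCNNTT in 21.6% and in 3 of 8, TGACG in 17.9% and in 5 of 8, and ATTGG in 34.5% and in 6 of 8. In B2m, H2-K1 and H2-D1 alike the first base of ATTGG lay 25 bases after the first base of TGACG on the same strand. This spacing, looked for after the matches had been seen, occurred in 25 of all promoters, or 0.0925%, and among the 17 class Ib genes listed here H2-M3 also had it. Tap1 had a TGACG and a CCAAT but not this spacing, and its window overlaps that of Psmb9 by 225 bases, since the RefSeq starts of both genes lie 226 bases apart and run in opposite directions. Psmb8 and Psmb10 held none of the 4 motifs within these 250 bases, and Tap2 and Nlrc5 were not in the table.

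In the genome (GRCm38, GENCODE M21), 7 of the 10 members lie on chromosome 17. Tapbp is at chr17:33915899-33929292 (plus), H2-K1 at chr17:33996017-34000347 (minus) and H2-D1 at chr17:35262730-35267499 (plus). Between them Psmb9 at chr17:34181987-34187764 (minus), Tap1 at chr17:34187553-34197225 (plus), Psmb8 at chr17:34197721-34201454 (plus) and Tap2 at chr17:34203527-34216321 (plus) follow each other, and in this annotation the spans of Psmb9 and Tap1 overlap at their starts. B2m is at chr2:122147686-122153083 (plus), with the antisense gene Patl2 at its 3′ end, and Psmb10 at chr8:105935735-105938444 (minus) and Nlrc5 at chr8:94434356-94527272 (plus) lie on chromosome 8. H2-K1 and H2-D1 are close paralogs, and whether the counting used strand or shared reads is not given in the sources used here, so the split of reads between these 2 genes and between B2m and Patl2 is uncertain.

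**Figure D1:**
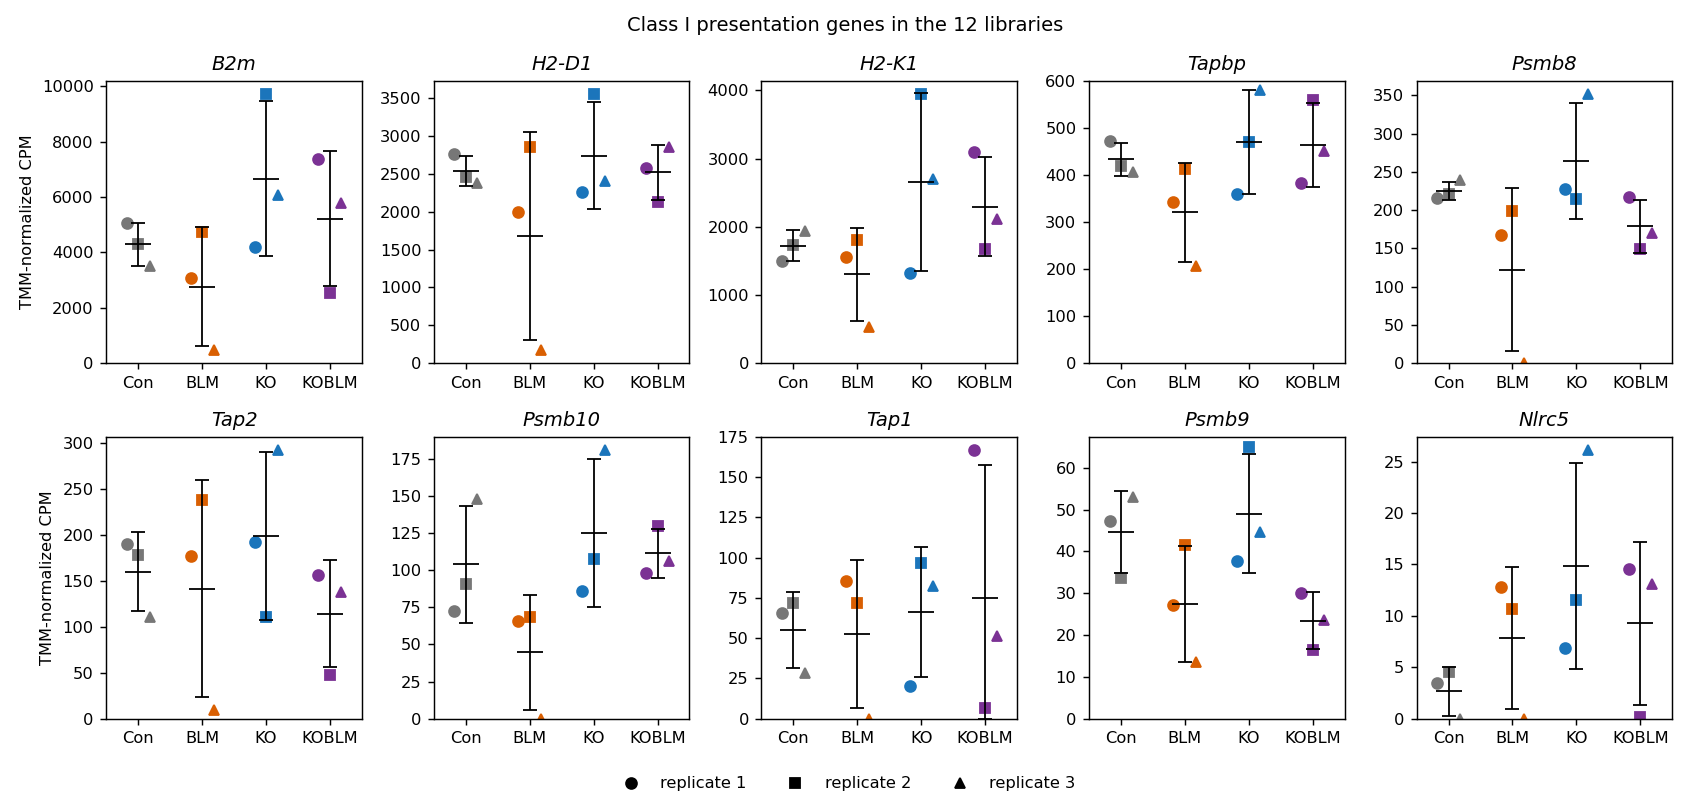
TMM-normalized CPM (y axis, linear, from 0, a separate scale for each gene) of the 10 class I genes in the 4 groups (x axis). Points are single libraries, shaped by replicate number, the long line is the mean and the bar is the SD of 3 mice, ending at 0 where it would go below; BLM replicate 3 lies at the bottom of every panel.

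Light and heavy chains made up most of the class I reads. B2m, H2-K1 and H2-D1 together held 83.6 to 94.1% of the counts of the 10 genes, which in turn held 0.174% (BLM replicate 3) to 1.53% (KO replicate 2) of all counts in a library. By mean level over the 12 libraries, as CPM scaled by the trimmed mean of M-values (TMM), B2m ranked 8 among the 13054 tested genes (4730 ± 2380 CPM, SD, n = 12). H2-D1 ranked 18 (2370 ± 805) and H2-K1 ranked 26 (1990 ± 893).

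B2m, the invariant light chain, was measured at 5045, 4317 and 3509 TMM CPM in Con, 3079, 4741 and 473 in BLM, 4186, 9722 and 6079 in KO, and 7356, 2539 and 5763 in KOBLM. Replicates 2 of KO and 1 of KOBLM were the highest libraries, and the ranges of all groups overlapped. H2-K1 was at 1496, 1725 and 1943 in Con, 1560, 1809 and 529 in BLM, 1324, 3942 and 2701 in KO, and 3102, 1674 and 2112 in KOBLM. H2-D1, the steadiest of the 3 in the PBS-treated controls, was at 2760, 2464 and 2377 in Con, 1997, 2858 and 170 in BLM, 2254, 3556 and 2411 in KO, and 2582, 2125 and 2851 in KOBLM. For H2-K1 and H2-D1, too, every pair of groups overlapped.

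The balance between the chains does not depend on scaling. The count ratio of H2-K1 to B2m lay between 0.296 and 0.659 in 11 libraries and was 1.12 in BLM replicate 3, where H2-K1 to H2-D1 was 3.11 against 0.542 to 1.2 elsewhere. H2-D1 to B2m was 0.547, 0.571 and 0.677 in Con and lower in every KO library, at 0.538, 0.366 and 0.397; the highest KO and the lowest Con ratio were almost equal. In BLM and KOBLM this ratio spanned 0.359 to 0.648 and 0.351 to 0.837. These ratios are descriptions, with no test.

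The peptide transporter and tapasin were expressed well below the chains they serve. Tapbp, the tapasin that bridges TAP and the heavy chain, was the least variable member (CV of 23.5% over the 12 libraries): 474, 420 and 408 CPM in Con, 343, 413 and 207 in BLM, 361, 470.3 and 582 in KO, and 383, 559 and 453 in KOBLM. Tap2 was at 190.2, 178 and 111 in Con, 177, 238 and 9.39 in BLM, 192, 110.2 and 293 in KO, and 157, 48.0 and 138 in KOBLM. Tap1, its partner in the heterodimer, was at 65.8, 71.8 and 28.1 in Con, 85.6, 71.7 and 0 in BLM, 20.5, 96.5 and 82.3 in KO, and 167, 6.51 and 51.5 in KOBLM. Tap1 was thus both highest and, outside BLM replicate 3, lowest in the KOBLM group. Tap1 to Tap2 count ratios ran from 0.107 to 1.07 in 11 libraries.

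The 3 inducible proteasome subunits change which peptides the proteasome releases. Psmb8 (LMP7) was at 216, 221 and 239 CPM in Con, 167, 199 and 0 in BLM, 228, 214 and 351 in KO, and 217, 149 and 170.2 in KOBLM. Psmb10 (MECL-1) was at 72.4, 91.1 and 148 in Con, 65.5, 68.5 and 0 in BLM, 86.1, 108 and 181 in KO, and 98.3, 130.2 and 106 in KOBLM. All 3 BLM libraries were below all 3 Con libraries for both genes, and also below all 3 KOBLM libraries for Psmb10. Psmb9 (LMP2) was at 47.4, 33.6 and 52.9 in Con, 27.2, 41.5 and 13.7 in BLM, 37.6, 64.9 and 44.5 in KO, and 30.1, 16.5 and 23.5 in KOBLM, so that every KOBLM library was below every KO library.

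Nlrc5, the transactivator, was the lowest member at 8.66 ± 7.74 CPM (SD, n = 12). Its counts were 27, 42 and 0 in Con, 88, 73 and 0 in BLM, 65, 70 and 314 in KO, and 104, 2 and 108 in KOBLM. As TMM CPM these are 3.44, 4.54 and 0 in Con, 12.8, 10.7 and 0 in BLM, 6.89, 11.5 and 26.1 in KO, and 14.6, 0.189 and 13.1 in KOBLM. All KO libraries were above all Con libraries, but a count of 0 allows up to 3 counts, 0.283 CPM of the library total in Con replicate 3 and 0.269 in BLM replicate 3, and such floors cover counting error only.

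In order of mean level the genes ran B2m, H2-D1, H2-K1, Tapbp, Psmb8, Tap2, Psmb10, Tap1, Psmb9 and Nlrc5. B2m was above H2-D1, H2-K1 above Tapbp, Tapbp above Psmb8, and Psmb9 above Nlrc5 in each of the 12 libraries. The other neighbours changed places between libraries: H2-D1 was above H2-K1 in 8, Psmb8 above Tap2 in 9, Tap2 above Psmb10 in 10, Psmb10 above Tap1 in 8 and Tap1 above Psmb9 in 8. BLM replicate 3 was the lowest library for all 10 members, tied at 0 with Con replicate 3 for Nlrc5, and held no read of Tap1, Psmb8, Psmb10 or Nlrc5.

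**Figure D2:**
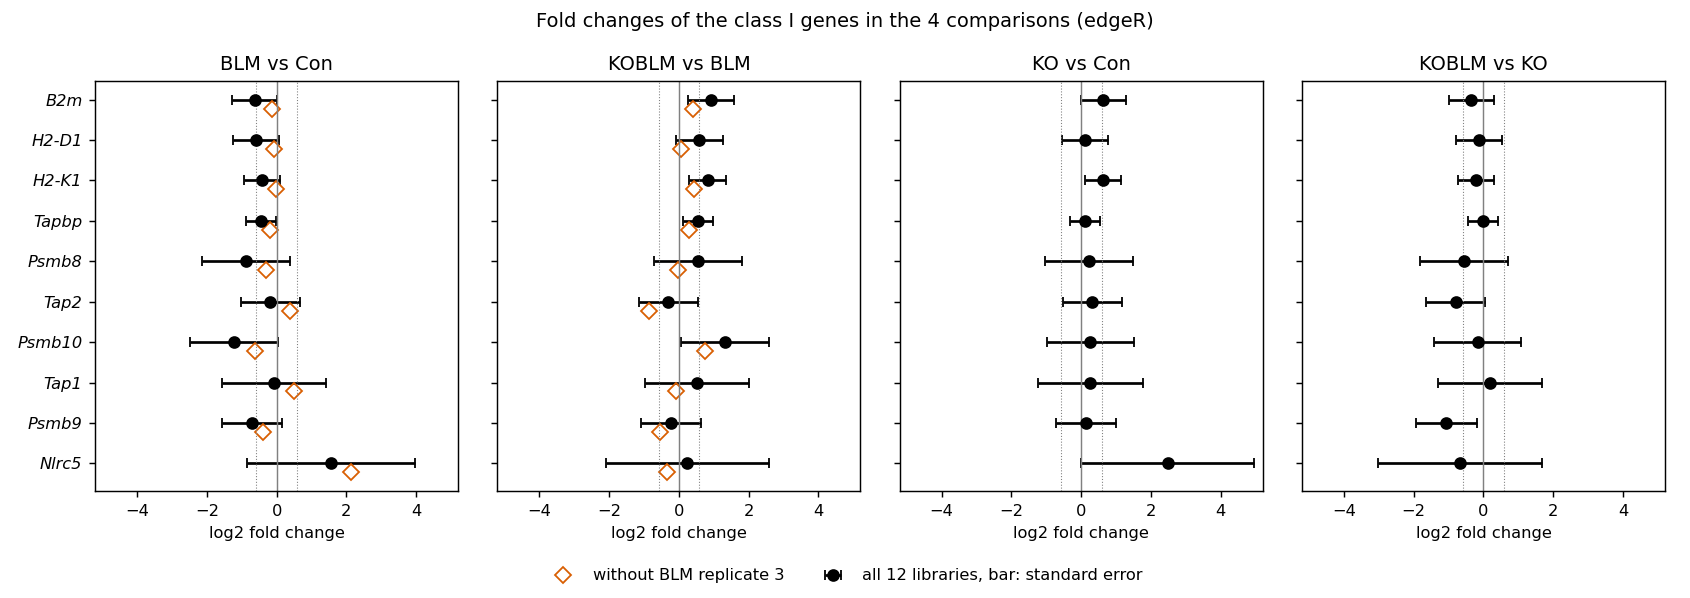
Log2 fold change (x axis) of each class I gene (y axis) in 4 comparisons, from edgeR. Filled points with bars are estimates and standard errors from all 12 libraries, open diamonds the estimates without BLM replicate 3, shown where BLM enters the comparison, and dotted lines mark a 1.5-fold change; no gene passed the test.

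The comparison of BLM with Con addresses the response of the sorted cells to bleomycin. None of the 10 genes passed the study's threshold of a 1.5-fold change with an unadjusted p under 0.05. Psmb10 was 2.33-fold lower (log2 fold change −1.22 ± 1.26, SE), Psmb8 1.85-fold lower (−0.89 ± 1.27), Psmb9 1.63-fold lower (−0.70 ± 0.87), B2m 1.55-fold lower (−0.63 ± 0.65) and H2-D1 1.51-fold lower (−0.60 ± 0.66). Estimates were below 0 for 9 of 10 members, with a median of −0.52 beside −0.08 over all tested genes, and Nlrc5 was the exception at 1.56 ± 2.40. In edgeR's quasi-likelihood test the smallest unadjusted p of a member was 0.329 (Tapbp) and all Benjamini-Hochberg adjusted p were 1, while 4.27% of all tested genes passed the threshold; DESeq2 also called no member.

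Without BLM replicate 3 the estimates of B2m (−0.13), H2-K1 (−0.03), H2-D1 (−0.06), Psmb8 (−0.30) and Psmb10 (−0.63) were closer to 0, those of Tap1 (0.51) and Tap2 (0.38) were positive and that of Nlrc5 was 2.14, with none called. The median of the 10 was then −0.10 beside 0.05 over all tested genes. Psmb8 and Psmb10 were lower in BLM with no overlap, with or without that library, beside 10.2% of all tested genes with it. Nlrc5 was higher in both remaining BLM libraries than in Con. For the comparison without BLM replicate 3 the share of all tested genes with no overlap was not counted. An exact permutation test (two-sided) over all 6 mice gave p = 0.1 for Psmb8 and for Psmb10, the smallest that 3 against 3 mice allow, so this test cannot reach 0.05. Groups without overlap give this value by design, so it adds nothing to the separation. Pan-leukocyte markers summed to between 478.25 (BLM replicate 3) and 3885.07 CPM in BLM and between 3729.93 and 4710.16 in Con. Within this list Ptprc (−1.64), Laptm5 (−1.05), Cd53 (−0.86) and Coro1a (−0.42) had negative log2 fold changes and Cd52 a positive one (1.22). The 5 fibroblast markers summed to between 901.25 and 1390.43 CPM in BLM and between 64.33 and 424.11 in Con. Their log2 fold changes (± SE) were 2.58 ± 1.31 for Col1a1, 2.46 ± 0.89 for Col1a2, 1.33 ± 1.55 for Dcn and 0.78 ± 2.49 for Pdgfra. Lum had no count in any BLM or Con library. In BLM replicate 3 only Col1a1 and Col1a2 of this list had counts, 6080 and 5124. The part of either list in these results was not tested.

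Relative to the constitutive subunits they replace, the inducible ones were lower in every BLM library than in every Con library. The count ratio of Psmb8 to Psmb5 was 2.31, 2.92 and 4.19 in Con and 0.978, 1.16 and 0 in BLM. Psmb9 to Psmb6 was 0.731, 0.264 and 0.43 in Con and 0.199, 0.188 and 0.0531 in BLM, and Psmb10 to Psmb7 was 1.3, 4.32 and 2.22 against 1.18, 1.16 and 0. For the last pair the gap between the groups was narrow, from 1.18 to 1.3. How many other gene pairs separate in this way was not counted, and 16% of single tested genes had no overlap between BLM and Con.

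In the libraries labelled KOBLM, Psmb8 to Psmb5 was 2.45, 2.09 and 1.18 and Psmb10 to Psmb7 was 3.31, 7.45 and 2.28, each above every BLM library. Psmb9 to Psmb6, at 0.373, 0.103 and 0.134, overlapped with BLM. KO ratios overlapped with those of Con for all 3 pairs, and with those of KOBLM. Summed over the 3 genes, a sum chosen after the values had been seen, inducible to constitutive counts were 1.57, 1.54 and 1.78 in Con, 0.716, 0.686 and 0.0235 in BLM, 1.53, 1.03 and 1.77 in KO, and 1.73, 1.19 and 0.818 in KOBLM, so that the 3 BLM libraries were below the other 9. The ratios carry no test.

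**Figure D3:**
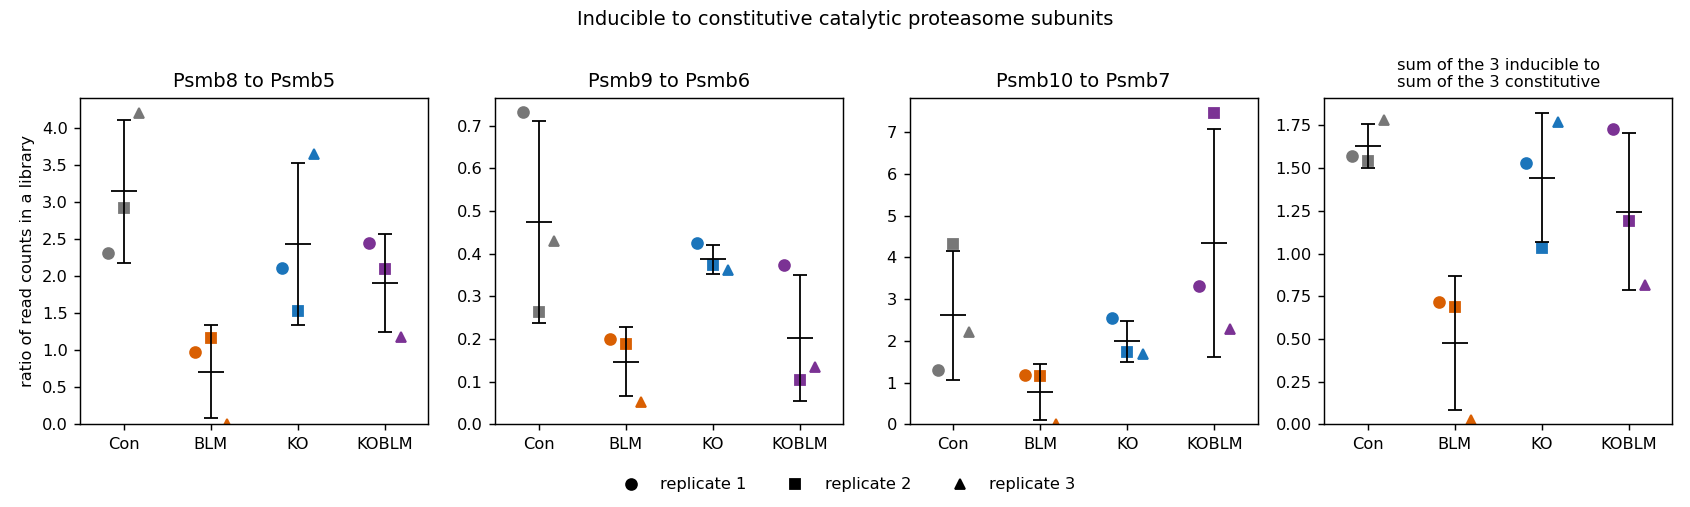
Ratio of read counts (y axis, linear, from 0) of each inducible proteasome subunit to the constitutive subunit it replaces, and of their sums, in the 4 groups (x axis). Points are single libraries, shaped by replicate number, with the mean and the SD of 3 mice; all BLM points of the summed ratio, 0.0235 to 0.716, lie below the lowest other library at 0.818.

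The constitutive subunits are the denominators of these ratios. Psmb5 was at 93.7, 75.8 and 57.0 TMM CPM in Con, 171, 170.6 and 224 in BLM, 108, 140 and 96.2 in KO, and 88.6, 71.0 and 144 in KOBLM. It was the 1 constitutive subunit of 3 to pass the threshold in BLM against Con, beside 4.27% of all tested genes. Its log2 fold change was 1.32 ± 0.54 (unadjusted p = 0.028, adjusted p = 0.995, edgeR). Without BLM replicate 3 it still passed, at 1.18, beside 767 of 14084 tested genes. Psmb5 passed in no fit that left out another BLM or Con library (1 of 6 such fits in all, 1.15 to 1.5). Psmb6 and Psmb7 had log2 fold changes of 0.96 and 0.58 and did not pass. The interaction for Psmb5 was −1.50 ± 0.76 (SE), which did not pass. Without BLM replicate 3 it passed (−1.35 ± 0.61, unadjusted p = 0.0434, edgeR), beside 652 of 14084 tested genes.

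The comparison of KOBLM with BLM asks what the loss of p300 does in bleomycin-treated mice, and it shares the BLM libraries with the comparison before. No member passed here. Psmb10 was 2.5-fold higher (log2 fold change 1.32 ± 1.26, SE), B2m 1.89-fold (0.92 ± 0.65) and H2-K1 1.77-fold higher (0.82 ± 0.52, the smallest unadjusted p of a member at 0.135, adjusted p = 1, edgeR), while Tap2 (−0.31 ± 0.85) and Psmb9 (−0.23 ± 0.86) were lower. Of 10 estimates 8 were positive, with a median of 0.54 beside 0.10 over all tested genes, of which 3.16% were called. DESeq2 called no member here either.

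Without BLM replicate 3 the signs split evenly, 5 positive and 5 negative, with a median of 0.01 beside −0.06 over all tested genes and with B2m at 0.42, H2-K1 at 0.45 and Psmb10 at 0.73. Psmb10 was the only member higher in KOBLM with no overlap, beside 6.14% of tested genes with all 12 libraries. Its exact permutation p of 0.1 follows from this separation. Without BLM replicate 3, Psmb10 was again higher and Tap2 was lower in KOBLM with no overlap. With only 2 BLM libraries left this is more easily met, and its share over all tested genes was not counted. B2m passed the threshold in 2 other fits: with no filter on low counts (log2 fold change 0.94, unadjusted p = 0.0496, edgeR; 3.69% of genes called) and without BLM replicate 2 (1.56, unadjusted p = 0.042, edgeR; 3.16% called), where BLM replicate 3 was 1 of the 2 BLM libraries left. Summed macrophage and pan-leukocyte markers were lowest in BLM replicate 3, as the plot of class I genes and markers shows, and their part in these values was not tested.

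**Figure D4:**
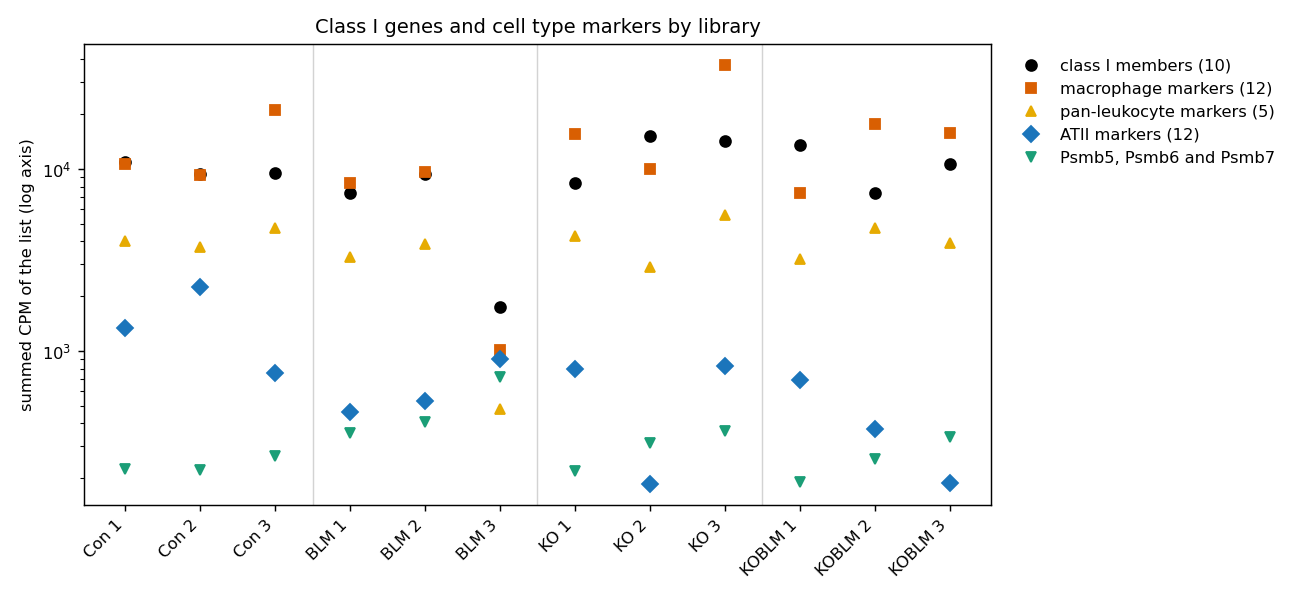
Summed CPM of the library total (y axis, log scale) for the 10 class I genes, 12 macrophage, 5 pan-leukocyte and 12 ATII markers, and the constitutive subunits Psmb5, Psmb6 and Psmb7, in each of the 12 libraries (x axis). In BLM replicate 3 the class I sum was 1741.39 against 7364.31 to 15253.02 in the others, and the constitutive proteasome sum was the highest, at 722.58.

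In PBS-treated mice, KO against Con, all 10 estimates were positive and small for all but Nlrc5. B2m was 1.55-fold higher (log2 fold change 0.64 ± 0.65, SE) and H2-K1 1.54-fold higher (0.63 ± 0.52), and the other 7 members apart from Nlrc5 lay between 0.11 and 0.31. Nlrc5 was at 2.48 ± 2.48, an estimate that rests on 27, 42 and 0 counts in Con, and it was the only member whose groups did not overlap, beside 3.26% of tested genes that were higher in KO with no overlap. None passed the threshold (smallest unadjusted p = 0.245 for H2-K1, adjusted p = 1, edgeR; 1.44% of tested genes called; no member called by DESeq2). The median was 0.27 beside −0.09 over all tested genes. With scaling by library size alone the median of all genes shifted to −0.21, and H2-D1 and Psmb9 turned to −0.02 and −0.002.

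Bleomycin within the knockout, KOBLM against KO, gave negative estimates for 9 of 10 members with a median of −0.28 beside 0.08 over all tested genes. Psmb9 was 2.1-fold lower (log2 fold change −1.07 ± 0.87, SE; unadjusted p = 0.241, adjusted p = 1, edgeR) and was the only member with no overlap, beside 3.02% of tested genes that were lower in KOBLM in this way. Tap2 was 1.74-fold lower (−0.80 ± 0.85), and B2m (−0.35), H2-K1 (−0.21), H2-D1 (−0.12) and Tapbp (−0.02) were closer to 0. No member was called by edgeR or DESeq2, beside 1.69% of tested genes.

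The difference between both bleomycin responses, tested as an interaction, was not resolved for any member. Estimates ran from −2.23 ± 3.36 (Nlrc5) to 1.06 ± 1.76 (Psmb10) on the log2 scale, with a smallest unadjusted p of 0.504 (Tapbp; adjusted p = 1, edgeR), and neither edgeR nor DESeq2 called a member, beside 2.82% of tested genes by edgeR. For Tapbp, the most precisely measured member, the interaction was 0.42 ± 0.61, and for Nlrc5, Tap1, Psmb8 and Psmb10 the standard errors were 3.36, 2.11, 1.78 and 1.76. At this spread, differences of the size measured here could not be told from none. The signs differed with and without BLM replicate 3: 7 estimates were positive and 3 negative with it, and 2 were positive and 8 negative without it, from −2.82 to 0.47 (Psmb10), with Tap2 at −1.17 and again none called. The median without it was −0.24 beside 0.06 over all tested genes.

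The genes around the class I pathway gave few calls. Among 9 loading and trimming genes none was called in any of the 5 tests; the most abundant were the chaperones Calr, Canx and Pdia3, which help class I chains to fold and load, and the aminopeptidase Npepps. The summed CPM of this list was nevertheless lower in every BLM library (1396.86 to 1435.69) than in every Con library (1653.55 to 2066.73). It was 1823.86 to 2071.62 in KO and 1888.6 to 2144.95 in KOBLM. How often other sums separate in this way was not counted. Of the 4 genes of the proteasome activator and its assembly none was called; Psme2, the beta subunit of the interferon-inducible PA28, was at 56.4, 84.9 and 88.5 TMM CPM in Con and 40.8, 41.4 and 7.65 in BLM. Psme1, Psme3 and Pomp did not pass either.

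Of 17 nonclassical class Ib genes 13 could be tested and none was called. They summed to between 165.98 and 198.58 CPM for Con and between 3.14 (BLM replicate 3) and 141.02 for BLM. KO spanned 172.44 to 224.65 and KOBLM 113.66 to 191.55. BLM was again below Con, a separation whose share over other sums was not counted. Among 16 regulators of class I promoters, of which Irf1, Irf2 and Irf8 of the interferon regulatory factors and the p300 paralog Crebbp were the most abundant, none was called. Irf1 was at 73.3, 253 and 132 TMM CPM in Con and at 478, 173 and 55.8 in BLM.

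Interferon signalling and class II genes gave the other calls. Jak2, a kinase of the interferon-gamma receptor, rose in BLM against Con (log2 fold change 2.12, unadjusted p = 0.0388, edgeR) and in KOBLM against KO (3.12, unadjusted p = 0.00606, edgeR), as 1 of 9 tested genes of interferon receptor signalling, beside 4.27% and 1.69% of all tested genes called in these comparisons. Its TMM CPM was 19.1, 26.5 and 8.18 in Con, 125, 83.2 and 26.1 in BLM, 18.6, 4.45 and 6.74 in KO, and 69.7, 132 and 58.0 in KOBLM, so that every KOBLM library was above every KO library (3.85% of tested genes were higher in this way), while BLM and Con overlapped at BLM replicate 3. Of 25 interferon-stimulated genes tested only Gbp5, an interferon-induced GTPase, was called, in BLM and in KO against Con, beside 4.27% and 1.44% of all tested genes; its counts were 0 in all Con libraries, 54, 138 and 0 in BLM, 52, 71 and 0 in KO, and 160, 0 and 79 in KOBLM. The median log2 fold change of the 25 genes in BLM against Con was 0.54 beside −0.08 over all tested genes, and 1.14 beside 0.05 without BLM replicate 3.

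The class II genes H2-Aa and H2-Eb1, whose products present peptides from outside the cell, were called higher in BLM against Con (log2 fold changes 1.75 and 1.85, unadjusted p = 0.0389 and 0.0482, edgeR), 2 of 9 tested beside 4.27% of all tested genes. H2-Aa was at 994, 1412 and 368 TMM CPM in Con, 2552, 6365 and 445 in BLM, 637, 633 and 1291 in KO, and 1201, 528 and 1443 in KOBLM. Without BLM replicate 3, H2-Aa, H2-Ab1 and H2-Eb1 passed in BLM against Con at 2.27, 1.92 and 2.39, beside 767 of 14084 tested genes. In KOBLM against BLM these 3 then passed at −2.08, −1.99 and −2.16, with Cd74 at −1.25 and H2-Oa also lower, beside 471 called genes. Socs3 in BLM against Con, Irf9 in KO against Con and H2-Oa, lower in KOBLM than in KO, were further calls without that library. So were the interactions of H2-Aa (−1.96, unadjusted p = 0.0247, edgeR), of Gbp5 and, as given above, of Psmb5, beside 652 genes called for the interaction. How many of all genes were then called in KO against Con and in KOBLM against KO was not counted. The calls made with all 12 libraries were then tested without each compared library in turn, fits that were added after the data had been seen. H2-Aa and H2-Eb1 passed in BLM against Con in 3 of 6 such fits each and had their lowest log2 fold changes, 0.69 and 0.63, without BLM replicate 2. Jak2 passed in 1 of 6 fits in BLM against Con (without BLM replicate 3) and in 6 of 6 in KOBLM against KO (2.68 to 3.95). Gbp5 passed in 2 of 6 fits in BLM against Con (without BLM replicate 1 or 3) and in 1 of 6 in KO against Con (without KO replicate 3). CD74, a marker used in the sort, is the class II invariant chain.

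Across the 12 libraries the members' levels were alike, and less so without BLM replicate 3. Over the 45 pairs of members the Pearson r of log2 TMM CPM had a median of 0.787 (0.362 to 0.988) over 12 libraries, and 0.346 (−0.293 to 0.827) over 11 libraries without BLM replicate 3, where 36 of 45 pairs were above 0. Without it B2m and H2-D1 were the most alike pair (0.827), H2-K1 was most like B2m (0.799), Tap1 most like Nlrc5 (0.729), and Psmb8 and Psmb9 were most like each other (0.661). The points share each library's depth and cell makeup, and these r are given as descriptions. Among 8903 other genes with a mean of at least 10 CPM, those most like the mean of the members were Mndal (0.989 over 12 libraries, 0.911 without BLM replicate 3), an interferon-inducible gene, then Nin (0.987 and 0.853), Dcun1d3 (0.982 and 0.838), Pik3ca (0.982 and 0.819) and Prkcd (0.981 and 0.835). Mndal was at the top of the order both ways, whereas the other 4 ranked 9 to 26 without that library.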

How the data were processed

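The authors prepared 3′ QuantSeq libraries from sorted ATII cells, sequenced them on a NextSeq 500 and deposited raw read counts per gene, 1 table for each of 12 mice; per the labels Bowtie2, edgeR and mm10 were used, with roles and versions not given in the sources used here. Each table listed 23282 entries; entries that shared a symbol were summed to 23238 symbols, and no member was among them. Members and gene lists were chosen with earlier results of these data known. Outside the marker lists, symbols named beyond the members were all genes of lists with at most 5 genes, otherwise up to 4 of the most abundant plus those called. The 5 genes most like the members' mean, Ep300 for the label check and H2-M3 for its promoter were among those named apart from this rule. Of the marker lists, the pan-leukocyte, fibroblast and ATII genes were all named. For macrophages only the most abundant genes and the extremes of fold change were named, and other marker lists were given as sums.

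Genes were filtered with filterByExpr (minimum count 10, minimum total 15), scaled by TMM (factors 0.835 to 1.26) and fitted in 1 model of the 4 groups with edgeR 4.0.16 (R 4.3.3), using its quasi-likelihood test and Benjamini-Hochberg adjustment over 13054 genes. The common biological coefficient of variation was 1.44. Genes were called by the study's threshold, more than 1.5-fold at p under 0.05 before adjustment (for the interaction, by p alone). DESeq2 1.42.0 was an alternative. Each library is 1 mouse, and depth limits Nlrc5 most, the member with counts near 0. Promoters came from RefSeq (GRCm38.p6) for 8 of 10 members. The statistical script was tested on simulated data.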

Additional observations from a re-analysis of the deposited data

How the results depend on the processing

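No member passed the threshold in any comparison with TMM scaling, DESeq2 size factors, library size alone, only the compared groups, DESeq2's Wald test, the adjusted p or the replicate block, and 1 member of KOBLM against BLM did, B2m, with no filter on low counts. Fits that left out 1 library called 0 to 1 members there (B2m without BLM replicate 2) and none in the other comparisons. Of 50 log2 fold changes, 26 changed sign in at least 1 fit that left out a library. For BLM against Con these ranges were Tap1 −0.625 to 0.51 and Tap2 −0.779 to 0.377. For KOBLM against BLM these ranges were Tap1 −0.825 to 1.064, Tap2 −0.862 to 0.294, Psmb8 −0.035 to 1.095, Psmb9 −0.556 to 0.197 and Nlrc5 −0.342 to 0.819. For KO against Con these ranges were H2-D1 −0.09 to 0.234, Tap1 −0.064 to 0.692, Tap2 −0.082 to 0.635, Tapbp −0.065 to 0.276, Psmb8 −0.031 to 0.394, Psmb9 −0.091 to 0.291 and Psmb10 −0.102 to 0.611. For KOBLM against KO these ranges were H2-K1 −0.531 to 0.152, H2-D1 −0.242 to 0.082, Tap1 −1.21 to 0.718, Tapbp −0.177 to 0.164, Psmb10 −0.371 to 0.203 and Nlrc5 −1.187 to 0.012. For the interaction these ranges were B2m −0.217 to 0.923, H2-K1 −0.178 to 0.585, H2-D1 −0.058 to 1.107, Tap1 −1.113 to 0.8, Psmb8 −0.264 to 0.867 and Psmb9 −0.69 to 0.064. Among 340 values under the other alternatives 3 changed sign: H2-D1 (−0.016) and Psmb9 (−0.002) in KO against Con with library size alone, and Tap1 in KOBLM against KO with the replicate block (−0.245). Of 80 member levels 3 moved by more than 1 SD when Rn45s was left out of the total, all in Con: H2-D1 to 2790, Tapbp to 478 and Psmb8 to 248 CPM. None of 256 ratio values moved by more than the larger SD of log2 ratios within a group, the limit used. In BLM comparisons, counts of 0 in BLM replicate 3 made this limit very wide, as for Psmb8 to Psmb5 (log2 ratio −11.598). For such ratios this check cannot show stability. Without BLM replicate 3, 7 of 45 counts of called list genes moved. Same-numbered libraries deviated together by r of −0.114 to 0.096. These r address a pairing by number alone, and whether libraries shared a batch was not tested. The replicate block moved the number of all genes called from 558 to 394, 413 to 262, 188 to 100, 221 to 100 and 368 to 242 in the order above. DESeq2 called 947, 755, 374, 460 and 625 of them. The cause of these shifts was not tested.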
